A study of Mus musculus with 12 samples.

Results

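H19, Igf2 and 8 other imprinted genes that act on growth (Peg3, Cdkn1c, Plagl1, Mest, Grb10, Peg10, Airn and Igf2r) were followed in mouse embryonic stem cells of 2 genotypes, before differentiation and as embryoid bodies. The 10 genes were chosen by name, with earlier results of these data known. Counts of them set below against all loci therefore describe a chosen set. Their loci were found among the 40039 merged loci of the deposited table through the exons of the deposited transcript models. All 10 were found, and all 10 passed the filter on low counts that left 23991 loci for testing. Poly(A) RNA had been sequenced as pairs of reads of 100 bases in 12 libraries, 3 for each combination of genotype and day. The cells carry the strain label C57BL/6J and are either WT or Notch1-/-, so that the 4 groups are WT at day 0, WT at day 6, Notch1-/- at day 0 and Notch1-/- at day 6. Day 0 cells had been kept with LIF at 1000 U/ml on embryonic fibroblast feeders or on gelatin, without a statement of which library had which support. Day 6 material is embryoid bodies, aggregates started as hanging drops of 1000 cells to induce cardiac differentiation. The labels state neither which stretch of Notch1 is deleted nor whether each genotype is a single clone. The series' design speaks of biological replicates, but nothing says that they were separate cultures, so the p-values below measure the spread between these libraries, which may be technical.

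Imprinted genes are expressed mainly from the allele of 1 parent, set by DNA methylation laid down in the germ line. H19, a noncoding RNA expressed from the maternal allele, and Igf2, a secreted growth factor expressed from the paternal allele, lie side by side and share enhancers, and the insulator protein CTCF binds between them on the maternal chromosome. Igf2r, the maternally expressed receptor that carries IGF2 to lysosomes for degradation, is silenced on the paternal chromosome by Airn, a long noncoding RNA that starts inside Igf2r and runs against it. These data give total RNA per gene and carry no information on the parental allele. In such bulk samples, fewer cells of a type and less RNA per cell cannot be told apart.

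Library totals ran from 100637179 to 134662426 counts. Notch1, the deleted receptor gene, averaged 40.1 ± 19.2 and 33.3 ± 4.04 CPM in WT at days 0 and 6, and 4.09 ± 0.439 and 5.55 ± 1.08 CPM in Notch1-/- (SD, n = 3 each), with every Notch1-/- library below every WT library of its day. CPM is a count scaled to a common library total of 1e6, after TMM correction for differences in composition. Pluripotency markers, 6 of 9 listed, summed to 1845 to 2590 CPM in WT and 1397 to 2768 CPM in Notch1-/- at day 0, and to 385.3 to 529.4 and 614.2 to 1015 CPM at day 6. Nanog and Tdgf1 added little to these sums, with means of 1.56 and 0.128 CPM in WT at day 0. Their deposited FPKM, a level per length and depth, averaged 218.8 and 395.6 there. Pou5f1, Sox2 and Dppa5a were listed but not tested.

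On mouse build mm9, 4 of the 10 loci lie on chromosome 7. H19 (149761436 to 149764051, minus strand) and Igf2 (149836673 to 149846940, minus) are 72.6 kb apart, Cdkn1c (150644241 to 150647110, minus) lies beyond Igf2, and Peg3 (6656301 to 6684564, minus) lies near the other end. Chromosome 6 holds Peg10 (4696505 to 4710567, plus) and Mest (30683506 to 30701559, plus). Chromosome 17 holds Airn (12934177 to 13070708, plus) and Igf2r (12875221 to 13027254, minus). Plagl1 (12780310 to 12851502, plus) is on chromosome 10 and Grb10 (11830502 to 11937423, minus) on chromosome 11. Each locus was named by matching the lengths of its exons and introns to annotated transcripts. For Peg10 this rests on a single intron, the only one of its length on that strand of the chromosome. That rule linked 652 loci and gave 42 decoy matches when looked up on the opposite strand. The rule that named the other genes linked 15969 loci and gave 0 decoy matches on another chromosome.

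Of the 10 genes, 3 carry microRNAs inside them, short RNAs that pair with target messages through bases 2 to 8, the seed. Their RefSeq sequences (GRCm38.p6) are shown because the host transcripts below include the strongest changes among the 10 genes. The miR-675 pair lies in an exon of H19 (chr7:142577112-142577133 for the 5p arm and chr7:142577078-142577099 for the 3p arm, minus strand). The miR-483 pair lies in an intron of Igf2 (chr7:142654968-142654989 and chr7:142654932-142654952, minus). The miR-335 pair lies in an intron of Mest (chr6:30741314-30741336 and chr6:30741354-30741375, plus). Capitals mark the seeds, which differ in all 6:
mmu-miR-675-5p: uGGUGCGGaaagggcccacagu
mmu-miR-675-3p: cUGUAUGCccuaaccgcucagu
mmu-miR-483-5p: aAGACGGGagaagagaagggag
mmu-miR-483-3p: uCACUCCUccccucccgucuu
mmu-miR-335-5p: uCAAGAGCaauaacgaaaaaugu
mmu-miR-335-3p: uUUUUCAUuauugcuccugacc
Mature microRNAs were not measured in these libraries, which hold long poly(A) RNA.

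RefSeq promoter windows of 250 bases before a start were found for 7 of the 10 genes, 13 windows in all. They were searched on both strands for GTGGGAA, the core motif of RBPJ, the DNA-binding partner of Notch receptors, and for GGGGGGCCCC, a site for PLAGL1. The RBPJ core occurred in 1 of the 13 windows, the most distal Igf2 start (chr7:142666817-142667066 of GRCm38.p6, minus strand), and in 5.42% of all 32851 windows. The match is in capitals:
Igf2 window 1: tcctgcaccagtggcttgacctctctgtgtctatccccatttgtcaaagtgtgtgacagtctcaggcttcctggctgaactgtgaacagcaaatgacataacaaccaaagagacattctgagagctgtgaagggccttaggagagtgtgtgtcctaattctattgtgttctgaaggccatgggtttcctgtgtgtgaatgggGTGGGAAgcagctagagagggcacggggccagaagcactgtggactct
The PLAGL1 motif occurred in 0 of the 13 windows and in 0.07% of all. A match is a string of letters, not a bound site. The windows of Igf2r (chr17:12769707-12769956, minus) and Airn (chr17:12741061-12741310, plus) are shown because the values of this antisense pair are set side by side below. Capitals mark each CG, the dinucleotide that carries methylation:
Igf2r: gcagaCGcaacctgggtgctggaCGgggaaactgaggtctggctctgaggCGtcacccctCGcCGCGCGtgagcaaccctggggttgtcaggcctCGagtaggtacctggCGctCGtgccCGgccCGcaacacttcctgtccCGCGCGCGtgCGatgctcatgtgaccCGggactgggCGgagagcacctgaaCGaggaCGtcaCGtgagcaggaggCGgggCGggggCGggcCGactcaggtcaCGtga
Airn: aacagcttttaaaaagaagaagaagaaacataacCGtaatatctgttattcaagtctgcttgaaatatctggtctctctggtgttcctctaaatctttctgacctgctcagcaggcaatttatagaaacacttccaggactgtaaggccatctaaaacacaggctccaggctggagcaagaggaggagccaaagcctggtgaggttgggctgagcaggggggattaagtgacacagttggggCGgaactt
The Igf2r window holds 27 CG and the Airn window 2, against a median of 6 over all windows. Each window stops at the start, so CG after it were not counted and these numbers do not describe a whole promoter. Among the 13 windows the number ran from 1 in the distal Igf2 window to 40 in a Grb10 window.

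The first comparison asked how the 10 genes changed over 6 days of differentiation in WT cells. All 10 rose and none fell (edgeR's quasi-likelihood test, Benjamini-Hochberg adjusted p under 0.05 over all loci), whereas 18.4% of the loci tested rose and 24.7% fell. Their median log2 change was 2.91, against -0.12 over all loci. The 3 day 6 libraries lay above the 3 day 0 libraries for all 10, a pattern that 25.1% of loci showed. The 10 genes together took 2.42% to 2.86% of all counts in WT day 6 libraries and 0.144% to 0.364% in the other 9 libraries.

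Igf2 had the greatest rise. It had 100.2, 100.7 and 117.1 CPM in WT day 0 libraries 1, 2 and 3, and 11334, 11803 and 10454 CPM at day 6. The replicates of each group lay close together and the groups were far apart. The rise was 105.7-fold (log2 change 6.72, SE 0.48, adjusted p = 2e-06, edgeR). Igf2 ranked first of all 40039 loci in each of the WT day 6 libraries, with 1.08% to 1.16% of the counts, after ranks 2012 to 2470 at day 0.

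H19, its neighbour, rose as well, by less. WT day 0 libraries had 50.7, 74.7 and 33.5 CPM, and WT day 6 libraries had 554.9, 582 and 490.5 CPM. The rise was 10.2-fold (3.36, SE 0.63, adjusted p = 0.0011, edgeR). Per 100 CPM of Igf2 there were 50.6, 74.1 and 28.6 CPM of H19 at day 0 and 4.9, 4.93 and 4.69 at day 6, so that the 3 day 6 libraries had a lower ratio than the 3 day 0 libraries, with a narrower spread.

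The Igf2 receptor Igf2r went from 432.5, 254.2 and 291.6 CPM to 1684, 1754 and 1637 CPM (2.38, SE 0.18, adjusted p = 2.45e-06, edgeR). Airn, its antisense RNA, went from 0.49, 0.145 and 0.329 CPM to 2.36, 1.74 and 1.57 CPM (2.55, SE 0.42, adjusted p = 0.000472, edgeR). Counts of both loci were higher at day 6, far fewer for Airn. Of the Airn exon length 82.73% is shared with loci on the opposite strand, mostly Igf2r. No strand setting of the counting is stated, so reads of the shared stretches cannot be assigned to either locus. Whether they were counted at all is not stated either. Grb10, an adaptor that restrains insulin and IGF receptor signalling, went from 237.8, 238.6 and 260.9 CPM to 1972, 1995 and 1680 CPM (2.94, SE 0.31, adjusted p = 1.98e-05, edgeR).

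Peg3, a zinc finger protein, rose from 190.1, 68.6 and 121.4 CPM to 3581, 3141 and 2875 CPM (4.66, SE 0.44, adjusted p = 9.71e-06, edgeR), the second greatest rise of the 10. Peg10, a retrotransposon-derived gene needed in the placenta, rose from 1024, 2554 and 1719 CPM to 9238, 9328 and 6229 CPM (2.23, SE 0.37, adjusted p = 0.000519, edgeR). It was already among the 45 most abundant loci at day 0 and ranked 3 or 4 at day 6. Plagl1, a zinc finger transcription factor of an imprinted gene network, rose from a mean of 1.47 ± 0.203 to 10.9 ± 2.21 CPM (2.88, SE 0.33). Cdkn1c, the cyclin-dependent kinase inhibitor p57, had the smallest rise, from 17.9 ± 3.58 to 54.8 ± 15 CPM (SD, n = 3; 1.61, SE 0.32, adjusted p = 0.00153, edgeR). Mest, a hydrolase-like protein of mesoderm, rose by 3.54 (SE 0.37) on counts that reached at most 6.28 CPM; its FPKM values are given further on.

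**Figure D1:**
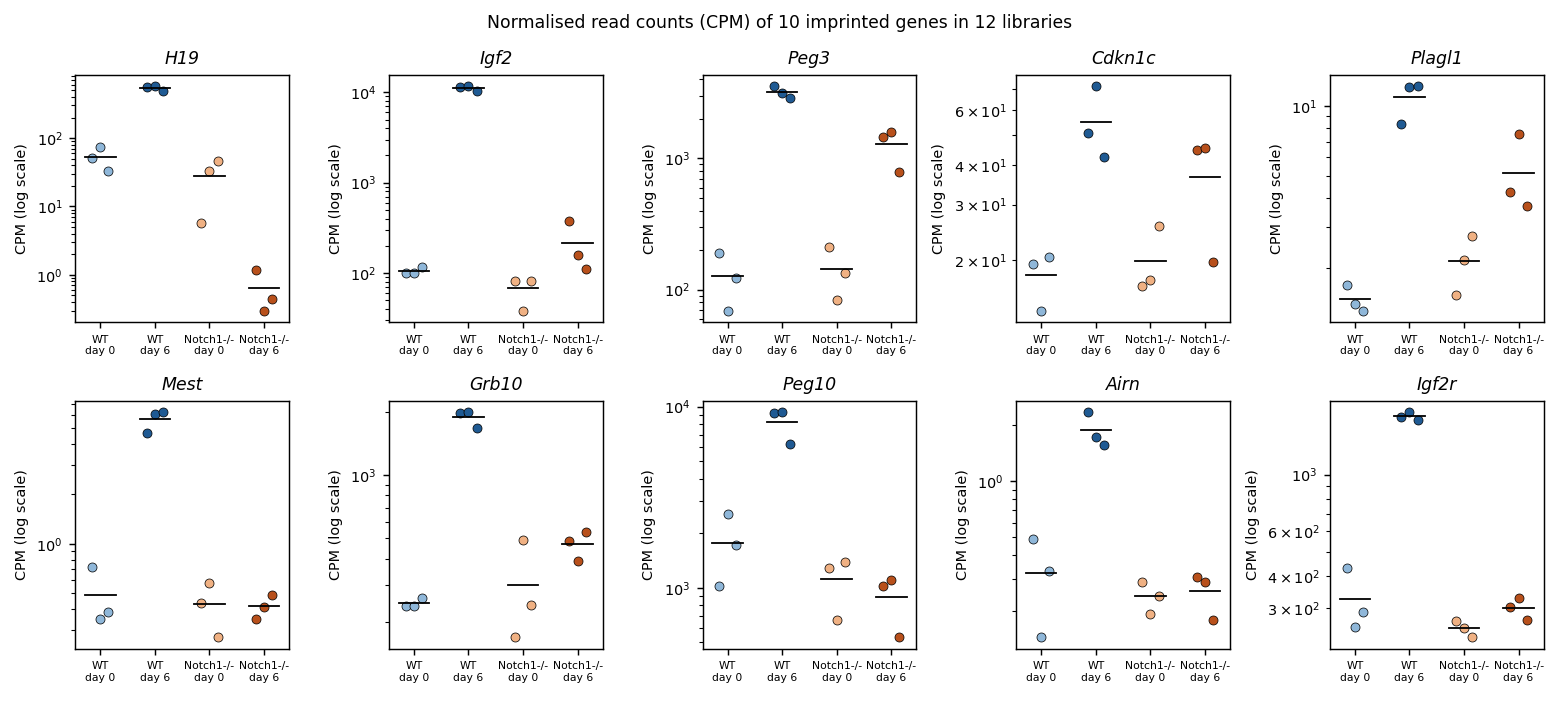
Normalised read counts (CPM, log scale, each panel with its own range) of the 10 genes in 12 libraries; dots are libraries and lines are means of 3. WT day 6 libraries are highest for each gene except Cdkn1c, whose lowest WT day 6 library (42.4 CPM) lies below 2 Notch1-/- day 6 libraries.

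Levels between genes can be set side by side only per length. In WT at day 6 Igf2 had a mean of 2643 CPM per kb of exon, followed by Peg10 (1099), Grb10 (323.8), Peg3 (215.4) and H19 (207.4). Igf2r (26.4) and Cdkn1c (25.7) came next, then Plagl1 (1.06), Mest (0.89) and Airn (0.0293). The ranges over libraries of Peg3 (193.6 to 241.2) and H19 (187.5 to 222.5) overlap, as do those of Igf2r (25.5 to 27.4) and Cdkn1c (19.8 to 33.5), and those of Plagl1 (0.812 to 1.19) and Mest (0.731 to 0.984). The merged exons of Igf2r and Airn span 64098 and 64606 bases and include stretches that overlap each other. Their CPM per kb, and so their places in this order, depend on those merged lengths. The deposited FPKM, also per length, gave another order: a mean of 577.9 ± 65.3 for Mest, above Peg3 (240.4 ± 26), Grb10 (238.7 ± 17.2) and H19 (160.2 ± 10.3), then Igf2r (116.6 ± 1.42), Cdkn1c (19.8 ± 4.88), Airn (11.4 ± 0.978) and Plagl1 (6.77 ± 1.57) (SD, n = 3), with Igf2 listed at 0 in all 3 libraries and Peg10 in 2.

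In Notch1-/- cells the second comparison asked the same question. Of the 10 genes 4 rose and 1 fell, where 17.2% of loci rose and 18.7% fell. Igf2, Peg3, Plagl1 and Cdkn1c rose, H19 fell, and Mest, Grb10, Peg10, Airn and Igf2r were not called. The median was 0.46, against -0.02 over all loci. Day 0 and day 6 libraries did not overlap for 5 genes (Igf2, Peg3, Plagl1, H19 and the uncalled Igf2r), as for 49.3% of loci.

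H19 ran opposite to its course in WT. It had 5.64, 32.6 and 45.8 CPM in Notch1-/- day 0 libraries 1, 2 and 3, and 1.17, 0.296 and 0.447 CPM at day 6. The highest day 6 library was below the lowest day 0 library. The log2 change was -5.47 (SE 0.72, adjusted p = 0.000142, edgeR), and -6.23 without day 6 library 1. The day 0 libraries spread over a wide range, and they had 621.5, 1790 and 2499 CPM summed over 19 of 22 listed feeder fibroblast markers, in the same order as H19; at day 6 the sum was 167.5, 150.1 and 186.5 CPM. In WT the sum was 2148, 1261 and 3853 CPM at day 0, where H19 was highest in the library with the lowest sum, and 1608, 1619 and 1182 CPM at day 6. Summed CPM follows the few most abundant markers. The mean log2 CPM over the 19 fell in WT from 4.91 to 6.75 at day 0 to 3.22 to 3.46 at day 6, and in Notch1-/- from 4.30 to 5.97 to 1.36 to 1.66. In WT 11 of the 19 fell and 2 rose over time (edgeR), where 24.7% of all loci fell and 18.4% rose. The rises numbered 0 without WT day 6 libraries 1 or 2, 1 without WT day 0 libraries 1 or 2 or WT day 6 library 3, and 5 without WT day 0 library 3. In Notch1-/- 17 fell and 0 rose, where 18.7% of all loci fell and 17.2% rose. Lox, an enzyme that crosslinks collagen, named after its values were seen, went from 216.7 ± 20.7 to 1.32 ± 0.567 CPM in WT and from 210 ± 154.1 to 1.89 ± 0.669 CPM in Notch1-/-. None of the 19 markers was at 0 in all libraries of a group, and 3 were under 1 CPM throughout each day 6 group. The part of feeder RNA in the H19 values was not tested.

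Igf2 rose from 82.5, 38.1 and 82.7 CPM to 373.8, 158 and 110.7 CPM (1.66, SE 0.38, adjusted p = 0.00505, edgeR). Library 1 was the highest at day 6, and without it the change was 0.99, still called. H19 per 100 CPM of Igf2 stood at 6.84, 85.7 and 55.4 at day 0 and at 0.313, 0.188 and 0.403 at day 6. Igf2 was thus present in libraries where H19 was nearly absent.

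Peg3 rose from 211, 83.4 and 133.8 CPM to 1466, 1585 and 783.3 CPM (3.16, SE 0.41, adjusted p = 0.000128, edgeR), the strongest rise of the 10 in this genotype. Plagl1 rose by 1.26 (SE 0.31, adjusted p = 0.00769), from a mean of 2.15 ± 0.615 to 5.17 ± 2.07 CPM. Cdkn1c libraries at day 0 had 16.6, 17.3 and 25.7 CPM, and those at day 6 had 44.7, 45.5 and 19.7 CPM, so that the groups overlap through day 6 library 3. Its call (0.88, SE 0.31, adjusted p = 0.043, edgeR) is lost under 11 of the 19 other settings for counts, among them leaving out WT day 0 library 3 (adjusted p = 0.0516), WT day 6 library 1 (0.0575), Notch1-/- day 0 libraries 1 or 2 (0.106 and 0.13) or day 6 libraries 1 or 2 (0.15 and 0.158). Grb10 went from 168.9, 489.5 and 240.4 CPM to 486.6, 391.7 and 532.9 CPM; it was not called (0.65, SE 0.29, adjusted p = 0.0958), and was called at 1.19 (adjusted p = 0.000751) without day 0 library 2. Igf2r stayed between 231.4 and 329.4 CPM, Peg10 between 533.7 and 1389 CPM and Airn between 0.179 and 0.306 CPM over the 6 libraries (log2 changes 0.27, -0.33 and 0.10).

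**Figure D2:**
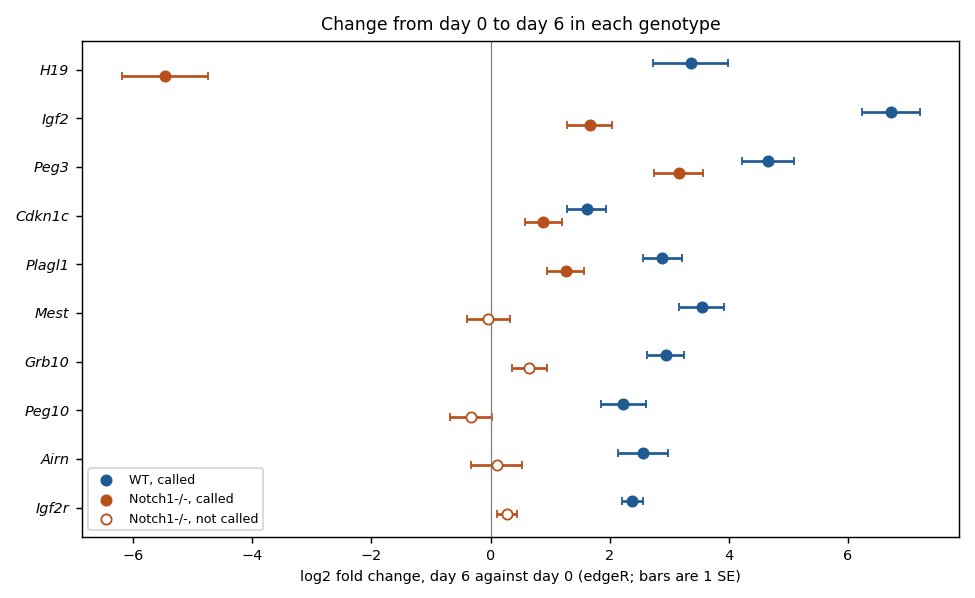
Log2 change from day 0 to day 6 (edgeR) of the 10 genes in WT (blue) and Notch1-/- (orange) cells, with bars of 1 SE; filled dots are called at an adjusted p under 0.05. WT changes run from 1.61 for Cdkn1c to 6.72 for Igf2, and Notch1-/- changes from -5.47 for H19 to 3.16 for Peg3.

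Before differentiation, none of the 10 genes was called between Notch1-/- and WT cells (0 higher and 0 lower, where 3.71% of loci were higher and 5.86% lower; edgeR, and DESeq2 also called 0; 1 had an unadjusted p under 0.05). The median log2 difference was -0.28, against -0.08 over all loci. Only the Igf2 libraries did not overlap, with 38.1 to 82.7 CPM in Notch1-/- and 100.2 to 117.1 CPM in WT (-0.65, SE 0.37, adjusted p = 0.278); 20.6% of loci did not overlap. H19 differed by -0.92 (SE 0.58, adjusted p = 0.318), with Notch1-/- library 1 far below the other 5, and by -0.43 without that library or -1.47 without Notch1-/- library 3. Igf2r, the gene with the unadjusted p under 0.05, differed by -0.38 (SE 0.17, adjusted p = 0.167), and was called at -0.53 (adjusted p = 0.0295) without WT day 0 library 2.

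At day 6 the fourth comparison set the genotypes against each other. Of the 10 genes 9 were lower in Notch1-/- embryoid bodies and 0 were higher, where 14.4% of loci were lower and 13.7% higher. The same 9 had every Notch1-/- library below every WT library, as 29.4% of loci did. The median difference was -2.68, against 0.01 over all loci. This comparison and the WT day course share the 3 WT day 6 libraries.

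H19 had the greatest deficit, 0.296 to 1.17 CPM against 490.5 to 582 CPM, which is 860-fold lower (-9.75, SE 0.85, adjusted p = 8.85e-06, edgeR; -10.51 without Notch1-/- library 1). Igf2 had 110.7 to 373.8 CPM against 10454 to 11803 CPM, 52.3-fold lower (-5.71, SE 0.46, adjusted p = 5.31e-06; -6.38 without Notch1-/- library 1). For these neighbours the shortfall was of unlike size, and both were far outside the spread of the libraries. Mest (-3.76, SE 0.38), Peg10 (-3.22, SE 0.39), Airn (-2.87, SE 0.43), Igf2r (-2.49, SE 0.18) and Grb10 (-2, SE 0.30) were lower by 4- to 13.5-fold, with adjusted p-values between 2.47e-06 and 0.000425.

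Peg3 and Plagl1 differed less, and their calls depended on single libraries. Peg3 was 2.5-fold lower (-1.32, SE 0.38, adjusted p = 0.0213, edgeR), and not called without WT libraries 1 or 2 (adjusted p = 0.0679 and 0.0512) or Notch1-/- library 3 (0.0853). Plagl1 was 2.1-fold lower (-1.07, SE 0.31, adjusted p = 0.0213), and not called without WT libraries 2 or 3 (0.0764 and 0.0719) or Notch1-/- libraries 1 or 3 (0.0804 and 0.0894). Cdkn1c, with 42.4 to 71.5 CPM in WT and 19.7 to 45.5 CPM in Notch1-/-, was not called (-0.58, SE 0.31, adjusted p = 0.184).

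The 19 feeder markers did not move together in WT over time, where 11 fell and 2 rose (24.7% and 18.4% of all loci). Their level at day 6 was thus not taken as a measure of feeder RNA, and its source was not tested. Of these 19 markers 10 were lower and 2 higher in Notch1-/- at day 6. The shares over all loci, for this list and those that follow, were 14.4% lower and 13.7% higher. Col1a1, a fibrillar collagen chain and one of the lower ones, had 28.4 ± 6.18 against 734.4 ± 218.3 CPM, and it was not called over time in WT (0.54, SE 0.45, adjusted p = 0.358, edgeR). The higher ones, named after their values were seen, were Thy1 (9.77 ± 4.34 against 3.7 ± 0.183 CPM) and Thbs2 (8.11 ± 5.25 against 1.09 ± 0.316 CPM), and Lox was not called (0.53, SE 0.49, adjusted p = 0.451). Of 11 extraembryonic endoderm markers 6 were lower and 1 higher (summed 249.5 to 521.9 against 480 to 558.7 CPM), and 4 were under 1 CPM in all Notch1-/- day 6 libraries against 1 in WT. The higher one was Lrp2, an endocytic receptor, which made up much of the Notch1-/- sum, with 142.6 to 407.9 CPM against 26.4 to 33.9 CPM in WT (2.93, SE 0.38, adjusted p = 0.000173, edgeR). Of 8 mesoderm and vessel markers 6 were lower and 1 higher (112.1 to 320.3 against 550.5 to 895.6 CPM), with Kdr at 182.1 ± 98.7 against 250.9 ± 70.3 CPM and Tbx20 at 22.5 ± 13.5 against 265.3 ± 70.2 CPM. Of 8 trophoblast markers 3 were lower and 1 higher (223.8 to 424.1 against 712.4 to 913.8 CPM), and of 6 pluripotency markers 0 were lower and 2 higher. Of these counts, the feeder markers called higher numbered 1 without any 1 WT day 6 library or without Notch1-/- day 6 libraries 1 or 3, the trophoblast markers called lower numbered 1 without WT day 6 library 1 or Notch1-/- day 6 library 3 and those called higher 0 without WT day 6 library 2, and the pluripotency markers called higher numbered 1 without Notch1-/- day 6 library 2. The part of cell makeup in the differences of the 10 genes was not tested.

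Whether the course over time itself differed between genotypes was tested as an interaction. It was lower in Notch1-/- for 8 of the 10 genes and higher for 0, where 4.92% of loci were lower and 6.36% higher, with a median of -2.37 against 0.08 over all loci. H19 (-8.83, SE 0.95, adjusted p = 0.000229, edgeR; -9.59 without Notch1-/- day 6 library 1) and Igf2 (-5.06, SE 0.56, adjusted p = 0.000248; -5.74 without that library) differed most. Mest (-3.57, SE 0.51), Peg10 (-2.55, SE 0.51), Airn (-2.45, SE 0.59), Grb10 (-2.29, SE 0.41), Igf2r (-2.11, SE 0.24) and Plagl1 (-1.62, SE 0.44) followed, with adjusted p-values from 0.00032 for Igf2r to 0.0323 for Plagl1. Airn was not called without WT day 6 library 1 (adjusted p = 0.0583) or Notch1-/- day 6 library 3 (0.0515). The Plagl1 call (adjusted p = 0.0323) was lost when any of 7 libraries was left out: WT day 0 library 3 (0.07), WT day 6 libraries 2 or 3 (0.0891 and 0.0782), Notch1-/- day 0 libraries 2 or 3 (0.0594 and 0.077) and Notch1-/- day 6 libraries 1 or 3 (0.0772 and 0.078). Peg3 (-1.50, SE 0.53, adjusted p = 0.0916) and Cdkn1c (-0.73, SE 0.44, adjusted p = 0.323) were not called, and Peg3 was called at -1.91 (adjusted p = 0.0375) without WT day 0 library 1.

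The deposited FPKM values, which are normalised by length and depth, gave another call than the counts in at least 1 comparison for Igf2, Peg10, Mest, Plagl1, Cdkn1c and Grb10. Airn had the same calls in both units but other sizes. For H19, Peg3, Cdkn1c, Grb10 and Igf2r the ratio of CPM to FPKM stayed within a range of 1.25- to 1.35-fold over the 12 libraries, and their log2 changes had the same sign in both units, except for Cdkn1c at day 0 (0.15 by counts and -0.04 by FPKM, called in neither). Of these 5, only Cdkn1c and Grb10 had another call, both in Notch1-/- over time: Cdkn1c was not called by FPKM (0.83, adjusted p = 0.0584, limma) and Grb10 was called higher (0.81, adjusted p = 0.0407). Plagl1, called by counts but not by FPKM in Notch1-/- over time (0.49, adjusted p = 0.21) and in the interaction (-1.35, adjusted p = 0.0518), ranged over 1.94-fold, Mest over 6.31-fold and Airn over 8.96-fold. Igf2 and Peg10 ranged over 1.25- and 1.29-fold wherever FPKM was above 0.

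Igf2 is listed at an FPKM of 0 in all 3 WT day 6 libraries, the same libraries where it is the locus with most counts. In the other 9 it had 15.2 to 19.5 FPKM in WT at day 0, 5.64 to 13 in Notch1-/- at day 0 and 17.7 to 58.2 at day 6. Read from FPKM (limma on log2(FPKM + 1), adjusted over 15069 loci), the Igf2 change in WT was -4.22 (SE 0.39, adjusted p = 1.71e-05) in place of 6.72, and the genotype difference at day 6 was 4.92 (SE 0.39, adjusted p = 7.71e-06) in place of -5.71. Peg10 is likewise listed at 0 in WT day 6 libraries 1 and 2 and at 709.9 FPKM in library 3, with 57 to 262.8 FPKM elsewhere. Such listed zeros were not particular to these genes: each library held 18 to 31 loci with over 100 CPM and an FPKM of 0.

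Mest shows the opposite disagreement, few counts and a high FPKM. It had 0.271 to 0.724 CPM at day 0 and in Notch1-/- at day 6, but 20.8 to 37.9 FPKM at day 0 in WT, 25.6 to 33.2 in Notch1-/- at day 0 and 59.9 to 67.3 in Notch1-/- at day 6. In WT at day 6 it had 4.67, 6.09 and 6.28 CPM and 624.6, 605.8 and 503.3 FPKM. Both units put WT day 6 highest. They part in Notch1-/-, where FPKM rose from day 0 to day 6 (1.06, SE 0.19, adjusted p = 0.00174, limma) and counts did not pass the test (-0.04, SE 0.36, adjusted p = 0.949, edgeR).

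Of the Mest exon length 63.28% is shared with Copg2, a coatomer subunit gene on the opposite strand. No strand setting of the counting is stated, so reads of the shared stretches cannot be assigned to either gene. Mest had 0.00552 to 0.0348 CPM per FPKM over the 12 libraries, against 3.01 to 3.84 for H19, which shares no exon length. Whether reads of shared stretches were left out of the counts was not tested. Airn shares 82.73% of its exon length with opposite-strand loci, 44991 bases of it with Igf2r, and those bases are 70.19% of the Igf2r exons. Airn had 10.3 to 12.2 FPKM in WT at day 6 and 0.225 to 0.711 FPKM in the other 9 libraries, and its calls were the same in both units in all 5 comparisons, although its change in Notch1-/- over time, called in neither, was 0.10 by counts and -0.16 by FPKM. Per 100 FPKM of Igf2r there were 10, 10.3 and 8.91 FPKM of Airn in WT at day 6 and 1.03 to 3.67 elsewhere. Plagl1 shares 44.45% with an unnamed opposite-strand locus, Peg3 10.56%, Peg10 3.79% (with Sgce) and Igf2 2.31% (with Igf2os), and H19, Cdkn1c and Grb10 share none.

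Counted over the 10 genes, FPKM gave the same call as counts for 8 in WT over time, 6 in Notch1-/- over time, 10 at day 0, 8 at day 6 and 7 in the interaction. By FPKM 8 rose and 1 fell in WT, where 22.9% of 15069 loci rose and 21.3% fell. In Notch1-/-, 4 rose and 1 fell (20.2% and 14.2% of loci), the rises being Igf2, Peg3, Mest and Grb10. At day 0, 0 were higher and 0 lower (2.95% and 3.76% of loci). At day 6, 1 was higher and 7 were lower in Notch1-/- (14.8% and 16.4% of loci). In the interaction 1 was higher and 5 were lower (7.21% and 6.83% of loci).

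**Figure D3:**
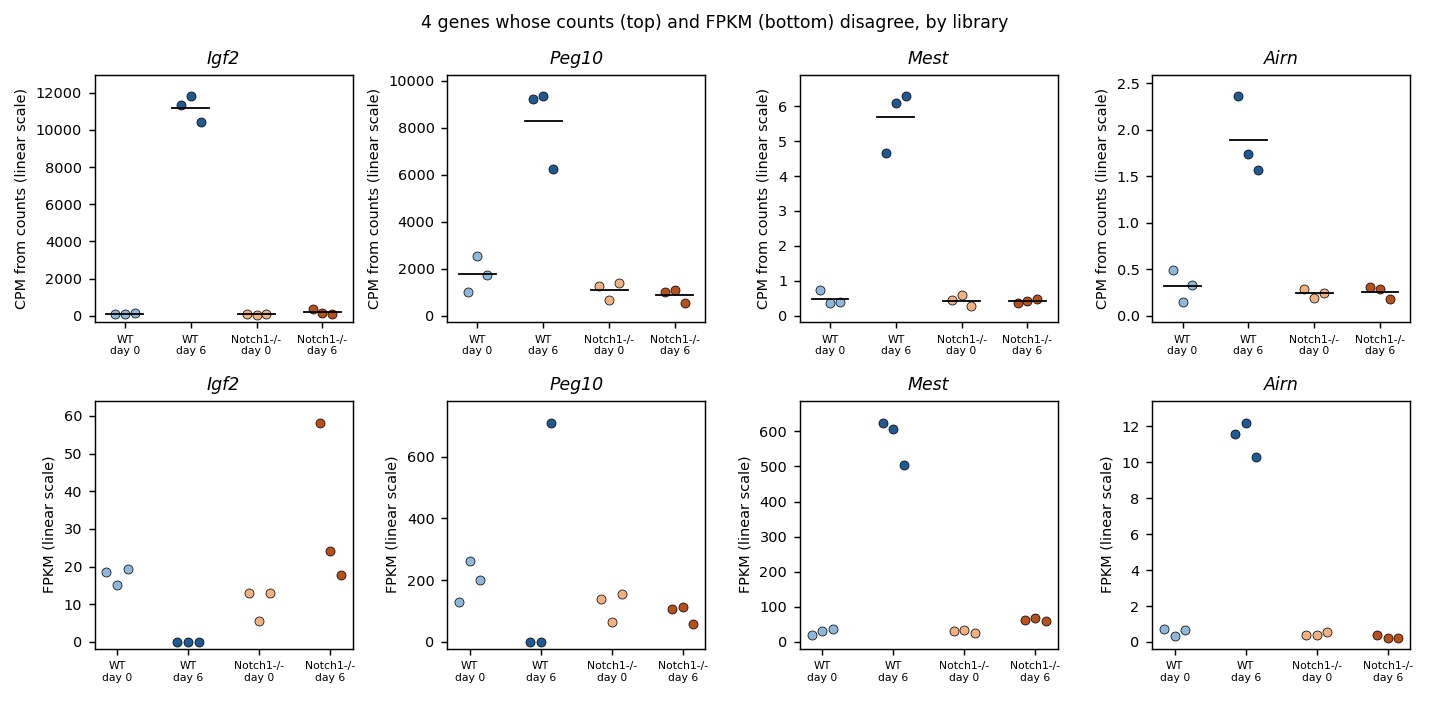
CPM from counts (top) and deposited FPKM (bottom) of Igf2, Peg10, Mest and Airn by library, linear scales from 0; lines in the top panels are means of 3. Igf2 is at 10454 to 11803 CPM and at 0 FPKM in WT day 6 libraries, and Mest at 4.67 to 6.28 CPM and 503.3 to 624.6 FPKM.

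**Figure D4:**
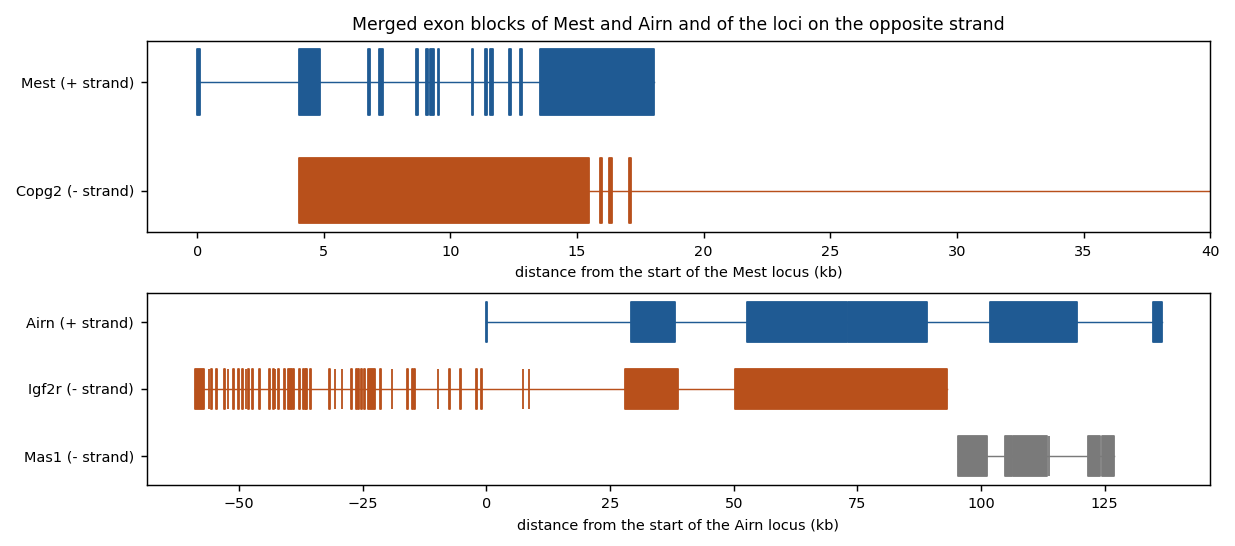
Merged exon blocks (boxes) of Mest and Airn and of the opposite-strand loci that overlap them, as distance in kb from the start of each named locus; Copg2 runs on beyond the right edge. Copg2 boxes cover 63.28% of the Mest exons, and Igf2r and Mas1 boxes cover most of the 82.73% of Airn exons that are shared.

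Other imprinted genes were read through 2 lists. For these and the gene lists after them, the shares over all loci were 18.4% rising and 24.7% falling in WT. In the interaction the shares were 4.92% lower and 6.36% higher. Of 24 listed genes usually expressed from the paternal allele 10 were tested: in WT 7 rose and 0 fell (median 0.91, against -0.12 over all loci; 1 fell without Notch1-/- day 0 libraries 1 or 2), and the interaction was lower for 3 and higher for 0 (median -0.32, against 0.08). Of these 10 tested, 2 share at least 50% of their exon length with other loci. Dlk1, a Notch ligand-like membrane protein, rose in WT from 5.43 ± 0.8 to 305.2 ± 10 CPM and stood at 11.9 ± 8.37 and 7.14 ± 2.74 CPM in Notch1-/-, an interaction of -6.55 (SE 0.79, adjusted p = 0.000383, edgeR). Sgce, the sarcoglycan gene that starts next to Peg10, rose in WT by 2.34 (SE 0.24) with an interaction of -1.92 (SE 0.32, adjusted p = 0.00276, edgeR). Its FPKM change in WT was -1.46, of the opposite sign, although its mean FPKM was 9.14 ± 1.87 at day 0 and 15.9 ± 27.6 at day 6. The WT day 6 libraries thus differed widely in Sgce FPKM. Slc38a4, an amino acid transporter of the placenta, rose by 1.83 (SE 0.27) with an interaction of -1.85 (SE 0.38, adjusted p = 0.00858). Usp29, which shares a promoter region with Peg3, rose in both genotypes (4.30, SE 0.69, and 4.04, SE 0.68), and its interaction was not called (-0.25, SE 0.86). Inpp5f rose by 0.62 (SE 0.12) in WT.

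Among genes usually expressed from the maternal allele, 20 of 32 listed were tested, and 4 of these 20 share at least 50% of their exon length. In WT 6 rose and 2 fell (median 0.13), and the interaction was lower for 3 and higher for 3 (median -0.20), so this list was split. Without WT day 0 library 2 the falls numbered 4, and without WT day 6 library 1 they numbered 1. Zim1, a zinc finger gene next to Peg3, rose by 5.78 (SE 0.60) in WT and by 2.15 (SE 0.51) in Notch1-/- (interaction -3.63, SE 0.71, adjusted p = 0.00696, edgeR). Mirg, a noncoding RNA of the Dlk1 cluster, was lower in Notch1-/- already at day 0 (-4.42, SE 0.38, adjusted p = 2.2e-05) and lower still at day 6, with 0.315 ± 0.111 against 135.5 ± 7.74 CPM. Asb4 rose in both genotypes (4.72, SE 0.53, and 4.38, SE 0.52). Gatm, of creatine synthesis (interaction 1.95, SE 0.39), and Atp10a, a lipid flippase (2.04, SE 0.40), rose in Notch1-/- (1.08, SE 0.27, and 1.48, SE 0.29). Slc22a3, an organic cation transporter next to Igf2r, rose in WT (4.71, SE 0.71) from 0.091 ± 0.0128 to 2.42 ± 0.674 CPM. Copg2 rose by 1.27 (SE 0.16) in WT, with the reservation on shared exons with Mest.

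In the IGF system 11 of 14 listed genes were tested, and 2 of these 11 share at least 50% of their exon length. In WT 7 rose and 2 fell (median 1.04), with 1 fall without WT day 0 library 2 or any 1 of the WT day 6 libraries and 3 without WT day 0 library 3, and the interaction was lower for 3 and higher for 0 (median -0.10), with 5 lower without Notch1-/- day 0 library 1. Igfbp5, an IGF-binding protein, rose in WT from 4.03 ± 0.635 to 462 ± 69.7 CPM and was at 9.23 ± 3.5 and 8.44 ± 8.07 CPM in Notch1-/- (interaction -6.97, SE 0.77, adjusted p = 0.000255, edgeR). Igf1, the ligand related to IGF2, rose in WT from 0.587 ± 0.108 to 6.6 ± 2.27 CPM and fell in Notch1-/- from 1.46 ± 1.15 to 0.33 ± 0.337 CPM (interaction -5.62, SE 1.07, adjusted p = 0.00571). Igf2bp2, an RNA-binding protein of the Igf2 message, rose by 1.28 (SE 0.16) in WT (interaction -1.03, SE 0.22, adjusted p = 0.0105). Igfbp4 rose by 2.70 (SE 0.35) in WT and by 1.23 (SE 0.33) in Notch1-/-, with an interaction that was not called (-1.47, SE 0.47, adjusted p = 0.06). Igf2bp3 rose by 1.04 (SE 0.15) in WT and by 0.95 (SE 0.15) in Notch1-/-.

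**Figure D5:**
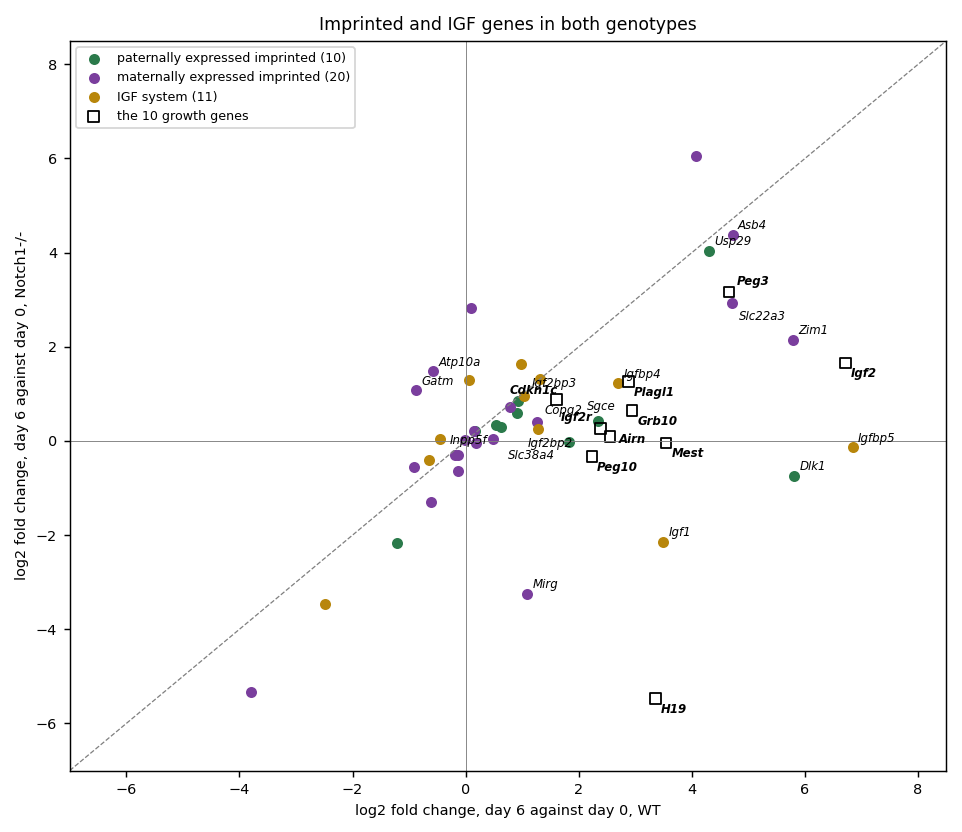
Log2 change from day 0 to day 6 in WT (x axis) and Notch1-/- (y axis) for the 10 growth genes (squares) and for tested genes of the 2 imprinted lists and the IGF list (dots, coloured by list); the dashed line marks equal change. All 10 squares lie below the line, H19 farthest at 3.36 and -5.47, while Asb4 and Usp29 lie close to it.

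The list on imprint maintenance and DNA methylation holds enzymes that add methylation and enzymes that oxidise it, so its counts do not measure maintenance. Of 10 tested of 13 listed, 0 rose and 5 fell in WT (median -0.84). The interaction was higher for 2 and lower for 1 (median 0.40). Dnmt1 went from 615.3 ± 40.4 to 508.7 ± 21.5 CPM in WT and Ctcf from 277.7 ± 80.3 to 234.7 ± 9.61 CPM. Trim28 and Uhrf1 were not tested. Tet1, an enzyme that oxidises methylated cytosine, fell from 995.9 ± 116.2 to 183.8 ± 6.64 CPM in WT and from 1208 ± 292.4 to 612 ± 207.7 CPM in Notch1-/- (interaction 1.46, SE 0.32, adjusted p = 0.012, edgeR). Dnmt3b, a de novo DNA methyltransferase, fell in WT (-1.09, SE 0.37) and rose in Notch1-/- (1.21, SE 0.37; interaction 2.29, SE 0.53, adjusted p = 0.0152). Its relative Dnmt3a had a log2 change of 0.00 (SE 0.35) in WT and rose by 1.22 (SE 0.35) in Notch1-/-, with an interaction that was not called (1.21, SE 0.49, adjusted p = 0.136). Tet2 fell by 2.14 (SE 0.33) in WT and by 2.17 (SE 0.33) in Notch1-/-. Ctcfl, the germline relative of CTCF, fell from 4.14 ± 1.12 to 0.477 ± 0.0984 CPM in WT and Zfp57, which protects imprints, fell by 1.52 (SE 0.38) in WT on counts under 1 CPM in all groups, while its mean FPKM was 141.6 ± 33.6 and 53.5 ± 0.776 in WT and 217.9 ± 89.4 and 89.9 ± 9.96 in Notch1-/-; 92% of its exon length is shared. Dppa3, the lower one (interaction -1.54, SE 0.40, adjusted p = 0.0268), was not called when any 1 of 5 libraries was left out: WT day 6 libraries 1 or 2, Notch1-/- day 0 library 3, or Notch1-/- day 6 libraries 1 or 3.

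Cell cycle genes listed with Cdkn1c, a mix of kinase inhibitors, cyclins, kinases and Rb1, gave 1 rise and 1 fall of 6 tested of 10 listed in WT (median -0.06). Over all loci 18.4% rose and 24.7% fell, so these counts were near the common shares. In the interaction 1 was higher and 1 lower. Without WT day 0 library 1 there were 2 rises, 2 falls and 2 lower. Cdkn1b, the related inhibitor p27, rose by 1.22 (SE 0.29) in WT and by 1.73 (SE 0.29) in Notch1-/-. Cdkn2a fell by 0.98 (SE 0.25) in WT and by 3.27 (SE 0.27) in Notch1-/- (interaction -2.29, SE 0.36, adjusted p = 0.00173, edgeR). Cdk6, a kinase of the early cell cycle, had an interaction of 1.26 (SE 0.25, adjusted p = 0.00698). Of the chromosome 7 neighbours of H19 and Igf2, 4 of 9 listed were tested. Lsp1 rose from 6.55 ± 2.62 to 44.7 ± 6.75 CPM in WT and stood at 4.74 ± 1.39 and 4.82 ± 1.91 CPM in Notch1-/- (interaction -2.75, SE 0.48, adjusted p = 0.00382). Mrpl23, the ribosomal protein gene beside H19, rose by 0.77 (SE 0.28, adjusted p = 0.0402) in WT. Th (-0.96, SE 0.51) and Ctsd (-0.30, SE 0.17) were not called, and 1 rise in place of 2 was left in this list without WT day 0 libraries 2 or 3, WT day 6 libraries 1 or 2, or Notch1-/- day 6 library 2.

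Likeness of pattern was measured as the root mean square difference of log2 CPM over the 12 libraries, each gene centred on its own mean. Only the 7871 loci that were linked to 1 gene symbol and had a mean log2 CPM of 2 or more were compared. Closest to H19 were Postn (1.28), a matrix protein that is also on the feeder marker list, Mirg (1.31), Acta2 (1.52), smooth muscle actin, and Ddx3y (1.57), a Y-linked RNA helicase. All 4 were nearly absent from Notch1-/- day 6 libraries or at their lowest there. Ddx3y had 56.8, 97.7 and 65.4 CPM in WT at day 0 and 50.1, 49.2 and 66.5 CPM in WT at day 6. In Notch1-/- at day 6 it had 0.054 to 0.125 CPM, so the genotypes differed in this Y-linked gene. Whether they differ in more of the Y chromosome, or otherwise beyond Notch1, was not tested. In Notch1-/- at day 0 Ddx3y had 3.17, 9.83 and 17.6 CPM, the order of the H19 values there. Postn followed the same order in Notch1-/- at day 0, with 10.6, 30.4 and 49.5 CPM, as did Mirg (1.51, 2.99 and 4.41 CPM). Acta2 did not (19.9, 52.5 and 47.9 CPM). In WT the mean of Postn was 50.2 ± 26 CPM at day 0 and 137 ± 26.4 CPM at day 6. The 4 genes were picked for likeness to H19 over these same libraries, so a shared order is partly built in.

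Closest to Igf2 were Tgfb2 (0.78), which encodes a secreted TGF-beta, Zim1 (0.78), Scube1 (0.87) and Unc5c (0.89), a netrin receptor. Their means rose in WT from 8.17 to 296, from 6.52 to 358.1, from 2.75 to 80.3 and from 2.27 to 363.1 CPM, and reached 11.4, 19.4, 3.7 and 17.9 CPM in Notch1-/- at day 6. Within the 10 genes the closest pairs were Airn with Igf2r (0.31), which share exon length, Grb10 with Igf2r (0.54), Igf2r with Mest (0.55) and Cdkn1c with Plagl1 (0.57). These are descriptions over 12 libraries that share groups.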

How the data were processed

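RNA was measured in 12 libraries, 3 for each of 4 groups assigned from the labels. Genome build mm9 and the tools Cufflinks 2.1.1, TopHat2 2.0.8, DESeq and HTSeq 0.5.4p3 are listed in the submitters' processing notes, without their roles or a strand setting. The files deposited by the authors hold unnormalised counts and FPKM of merged loci, and transcript models. Gene names came from matching exon and intron lengths to GENCODE transcripts, which linked 16535 of 40039 loci to 1 gene each. That number leaves out the single intron rule used for Peg10.

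The counts were tested in 1 fit of all 12 libraries with edgeR 4.0.16 (R 4.3.3; quasi-likelihood test, TMM scaling, default filter), and the deposited FPKM with limma 3.58.1 on log2(FPKM + 1) over loci with an FPKM of at least 0.5 in 3 libraries, a scale that understates changes of low genes. DESeq2 1.42.0 was an alternative. Both tests were run on counts simulated from the edgeR fit. The limma test was run there on log2(CPM + 1), so that check did not cover FPKM values or their listed zeros. Counting error was small beside library spread (replicate pairs differed by a chi-square of 35.6 to 380 per degree of freedom), and no libraries were duplicates. Libraries of the same number deviated together at day 0 (correlations of 0.165 to 0.398 in the 3 pairs), but not in every pair of the other comparisons (down to -0.032); this was judged from the data only. The 10 genes and the gene lists were chosen with earlier results of these data known. Beyond the 10 genes, those named were the up to 4 of each list with the smallest p in WT over time and in the interaction, and up to 3 abundant markers per cell type. The 4 loci linked to a gene symbol that were most alike to H19 and to Igf2 were also named. A few of these were left out of the text for length.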

Additional observations from a re-analysis of the deposited data

Results flagged for a closer look

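For 8 of the 10 genes the change from day 0 to day 6 differed between genotypes by a test of the difference itself (edgeR's interaction, adjusted p under 0.05 over all loci). The log2 differences, Notch1-/- minus WT, were -8.83 for H19, -5.06 for Igf2, -3.57 for Mest, -2.55 for Peg10, -2.45 for Airn, -2.29 for Grb10, -2.11 for Igf2r and -1.62 for Plagl1. By FPKM (limma) the Igf2 value was 5.70, of the opposite sign, where Igf2 is listed at 0 in the 3 WT day 6 libraries.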

How the results depend on the processing

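Of 32 calls for the 10 genes, 27 held under all alternatives for counts that gave a value, 19 for each comparison and 18 for the interaction, which cannot be had from only the groups compared (other scalings, filters, DESeq2, only the groups compared, the replicate block and each library left out). The rest were Cdkn1c over time in Notch1-/-, Peg3 and Plagl1 at day 6, and Plagl1 and Airn in the interaction. With 1 library left out, the counts of genes called ran from 3 to 4 higher and 1 to 1 lower in Notch1-/- over time, 0 to 1 lower at day 0 (1 without WT day 0 library 2), 7 to 9 lower at day 6 and 6 to 9 lower in the interaction; in WT all 10 rose each time. The replicate block lost Cdkn1c over time in Notch1-/- (0.85, adjusted p = 0.0634), called Peg3 in the interaction (-1.50, adjusted p = 0.04), changed no other call of the 10 genes, and gave 2 maternal genes higher at day 0 in place of 0; each library correlated best with its own number in 6 of 6 cases at day 0, 6 of 6 in WT over time, 4 of 6 in Notch1-/- over time and 3 of 6 at day 6. Cdkn1c was also lost with DESeq2's size factors (0.84, adjusted p = 0.0515), upper quartile scaling (0.72, 0.0831), a filter of 100 counts in 3 libraries (0.76, 0.081) and only the groups compared (0.87, 0.0747), and Peg3 in the interaction was called by DESeq2 (-1.59, 0.0355).

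With FPKM + 1, signs differed without a call in either unit for Cdkn1c and Mest at day 0 and for Airn in Notch1-/- over time. Among values called in at least 1 unit, FPKM turned the sign of 7. In 3 of them, all Igf2, a call became one of the opposite direction; in the 3 of Peg10 the FPKM value was not called, and Mest was not called by counts. With FPKM + 1, filtered or not, and with FPKM + 0.1, the log2 changes were -4.22 and -7.47 for Igf2 and -4.42 and -6.62 for Peg10 in WT, 1.06 and 1.08 for Mest in Notch1-/-, 4.92 and 8.20 for Igf2 and 3.33 and 5.53 for Peg10 at day 6, and 5.70 and 9.03 for Igf2 and 4.08 and 6.29 for Peg10 in the interaction. The values listed at 0 enter these for Igf2 and Peg10; for Mest the cause was not tested. All 3 FPKM settings gave 1 gene lower in WT, 1 higher at day 6, and 1 higher and 5 lower in the interaction.

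Over all loci, calls at day 0 numbered 2294, and 3714 with DESeq2 or 743 with only the groups compared; calls at day 6 were 6741, and 11462 with only the groups compared; in the interaction they were 2708, and 4099 with DESeq2. Leaving out 1 library moved these by over 1.5 times at day 0 (1233, 5735 and 1490 without WT day 0 libraries 1, 2 and 3; 3912, 1087 and 1525 without Notch1-/- day 0 libraries 1, 2 and 3), at day 6 (4305 and 4459 without WT day 6 libraries 1 and 2) and in the interaction (1654 and 1494 without the same 2). With only the groups compared, day 6 calls of the lists rose from 2 to 6 (imprint maintenance and DNA methylation, higher), from 2 to 4 (cell cycle genes listed with Cdkn1c, lower), from 3 to 6 (IGF system, lower) and from 2 to 4 (pluripotency, higher). Maternal genes that fell in WT were 4 in place of 2 with upper quartile scaling or the replicate block. Upper quartile scaling moved the median of all loci in WT from -0.12 to -0.29 and the share of rises among calls from 42.7% to 33.0%, and in Notch1-/- from -0.02 to -0.18 and from 47.8% to 37.1%. Counts per library were fewest for Airn (17 to 285) and Mest (27 to 735), both with most of their exon length shared.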
